A study of Mus musculus with 10 samples.

Results

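The genes described here are 10 genes of xenobiotic oxidation in the mouse intestinal epithelium: the cytochrome P450 (P450) genes Cyp3a11, Cyp3a13, Cyp3a25, Cyp2b10, Cyp2d26, Cyp2j6 and Cyp1a1, the P450 reductase gene Por, and the nuclear receptor genes Nr1i2 and Nr1i3. They were taken by symbol from the 54838 genes listed for each library, without a threshold on any measured value, and all 10 passed the filter on low counts. These genes and the lists of related genes below were chosen with earlier results of these data known. Their counts of calls beside the background are therefore descriptions. The libraries were made from polyadenylated RNA of crypts of the jejunum, isolated after the villi had been scraped off, with 1 mouse per library and 5 mice of each genotype, WT and Arid3a cKO. The cKO mice carried VillinCre-ERT2 and Arid3a fl/fl, in which tamoxifen activates a Cre recombinase that Villin sequences drive in epithelial cells, so that Arid3a stays intact in immune and stromal cells. Both genotypes received tamoxifen on 3 consecutive days and were killed 1 month after the first dose. The labels do not say whether the WT mice carried Cre or floxed alleles, and the mouse identifiers fall into separate series by genotype, so colony or litter and genotype cannot be told apart.

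Cytochrome P450 enzymes are heme proteins of the endoplasmic reticulum that oxidize drugs, dietary compounds, steroids and fatty acids, and they take their electrons from NADPH through the flavoprotein that Por encodes. PXR (Nr1i2) and CAR (Nr1i3) are nuclear receptors that bind DNA together with RXR and induce CYP3A and CYP2B genes when foreign compounds are present, while the aryl hydrocarbon receptor (AHR) induces Cyp1a1. In the small intestine these enzymes are known from absorptive enterocytes, where they oxidize part of an oral compound before it reaches the liver.

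All 7 P450 genes have the heme-binding pattern of the family, a stretch around the cysteine that holds the heme iron. Its coding DNA is shown because it is the feature that the 7 enzymes share and that Por and the 2 receptor genes lack. Each line holds 30 coding bases of the GENCODE transcript (GRCm38), read in the coding direction, with the cysteine codon in capitals.
Cyp3a11: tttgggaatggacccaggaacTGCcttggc
Cyp3a13: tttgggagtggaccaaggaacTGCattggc
Cyp3a25: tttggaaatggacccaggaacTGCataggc
Cyp2b10: ttctcaacaggaaagcgcattTGTcttggt
Cyp2d26: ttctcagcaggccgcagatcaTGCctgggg
Cyp2j6: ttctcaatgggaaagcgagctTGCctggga
Cyp1a1: tttggtttgggcaagcgaaagTGCatcgga
The codon stood for residue 443 of 504 in Cyp3a11 and for residue 461 of 524 in Cyp1a1, near the end of the chain in each. The Cyp2b10 stretch came from the annotated isoform of 491 residues, because the longest annotated isoform does not hold the pattern. Cyp3a11 shared 27 of the 30 bases with Cyp3a13 and 27 with Cyp3a25, and 16 with Cyp1a1. Over the whole coding sequence Cyp3a11 was 77.1% identical to Cyp3a13 and 76.4% identical to Cyp3a25, and Cyp3a13 was 77.0% identical to Cyp3a25.

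Near-identical copies matter here because RSEM, which estimated the counts, splits reads that fit more than 1 gene. Of the windows of 75 bases in each transcript, 11.2% of Cyp3a25 occurred also in Cyp3a57 or Cyp3a59, 3.66% of Cyp3a11 in Cyp3a16, Cyp3a41a, Cyp3a41b or Cyp3a44, and 3.81% of Cyp2d26 in Cyp2d22 or Cyp2d40. The share was 3.15% for Cyp2b10 (with Cyp2b13 and Gm45225) and 2.40% for Cyp1a1 (with Cyp1a2), and no window of Cyp3a13, Cyp2j6, Por, Nr1i2 or Nr1i3 was shared. Nr1i3 overlapped 3304 exon bases of Tomm40l on the other strand. Since the strand setting of the counting is not given in the sources used here, reads of this pair cannot be told apart there. Expected counts of Nr1i3 were fractional in 9 libraries, against 0 for Cyp3a13, Cyp2j6, Por and Nr1i2, which also shared no window. The cause was not tested.

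The genes lie at different places in the genome (GRCm38, GENCODE). On chromosome 5, Cyp3a11 (ENSMUSG00000056035) spans chr5:145854426-145879964 and Cyp3a25 (ENSMUSG00000029630) chr5:145977194-146009618, 97230 bases apart in the CYP3A cluster. Cyp3a13 (ENSMUSG00000029727, chr5:137892932-137921619) lies 7932807 bases from Cyp3a11, outside that cluster, and Por (ENSMUSG00000005514) spans chr5:135670033-135735326. The remaining P450 genes are Cyp2b10 (ENSMUSG00000030483, chr7:25897620-25926624), Cyp2d26 (ENSMUSG00000022445, chr15:82790101-82794294), Cyp2j6 (ENSMUSG00000052914, chr4:96516138-96553661) and Cyp1a1 (ENSMUSG00000032315, chr9:57687928-57703824). The receptor genes are Nr1i2 (ENSMUSG00000022809, chr16:38248323-38294824) and Nr1i3 (ENSMUSG00000005677, chr1:171213970-171220701).

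Arid3a itself, a DNA-binding protein of the ARID family, checks the labels. Its expected counts ran from 55 to 81 in WT and from 9 to 31 in cKO libraries, without overlap, and it fell by 1.84 on the log2 scale (SE 0.32, adjusted p = 0.00204, quasi-likelihood test of edgeR, Benjamini-Hochberg adjusted over 14719 genes, the test behind every adjusted p of a gene below). The libraries held 27050455 to 31053622 expected counts. WT 3 and WT 4 split from the other 8 libraries first in a clustering of the 1000 most variable genes, so fold changes without them are given as well. In all, 15.6% of the tested genes were higher and 12.7% lower in cKO, and 55.1% of the calls were higher. That share was 27.7% when only library size was used for scaling and 33.8% when log2(TPM + 0.5) was tested with limma, which changes both scale and test. The median log2 fold change of all genes was -0.03 in the fit reported, and -0.16 and -0.12 in these alternatives. The 10 genes were higher in cKO under each scaling.

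All 10 genes were higher in the crypts of Arid3a cKO mice (background 15.6% of the tested genes higher, 28.3% called in either direction), by 1.58-fold (Nr1i2) to 4.66-fold (Cyp3a13). The 7 P450 genes rose by 2.79-fold to 4.66-fold, the reductase gene by 1.60-fold and the receptor genes Nr1i2 and Nr1i3 by 1.58-fold and 2.10-fold. The median log2 fold change of the 10 genes was 1.86, beside -0.03 over all tested genes. On normalised counts (CPM, each count scaled to the TMM-adjusted library size), every cKO library lay above every WT library for all 10 genes, which held for 12.0% of the tested genes. The levels below are TPM values (the deposited share of each gene among all transcripts, corrected for transcript length), listed from mouse 1 to mouse 5 of each genotype, and fold changes come from the fit to the counts. Crypt RNA is a mixture, so more cells that express a gene and more of its mRNA per cell cannot be told apart.

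**Figure D1:**
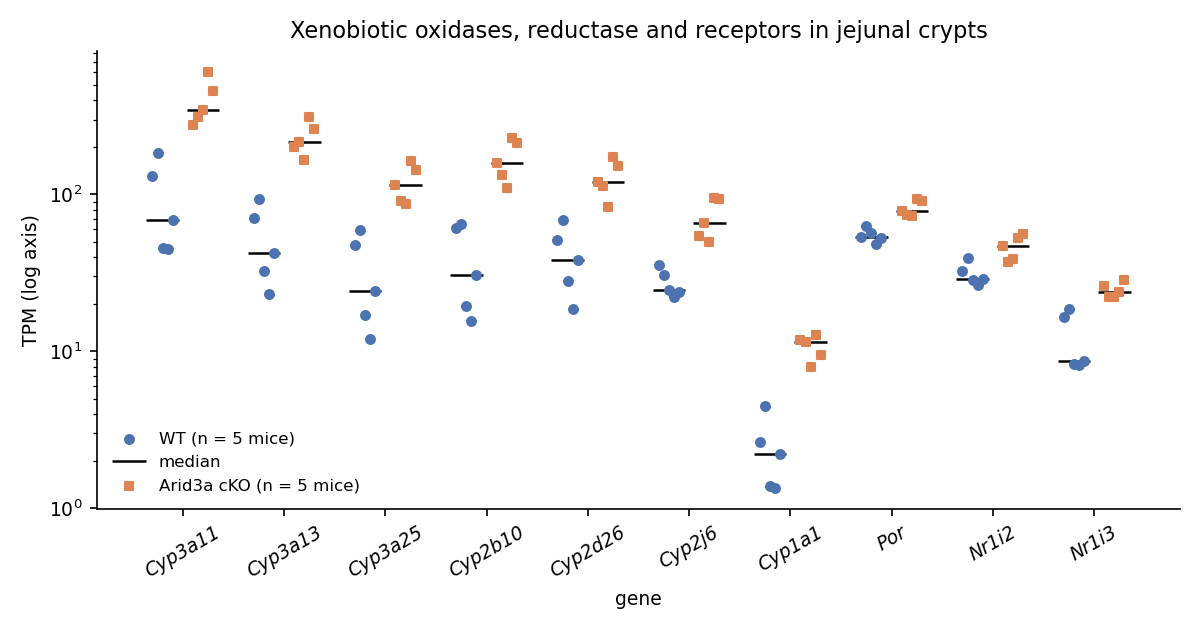
TPM of the 10 genes on a log axis, with a circle for each WT mouse, a square for each Arid3a cKO mouse and a bar at the group median. The groups stand apart for 9 genes, whereas for Nr1i2 the lowest cKO mouse (37.1) lies below the highest WT mouse (39.2).

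Cyp3a11, the main CYP3A enzyme of mouse liver and gut and a standard readout of PXR, stood at 132, 184, 45.9, 45.1 and 68.8 TPM in WT and at 277, 314, 348, 608 and 458 TPM in cKO mice. The lowest cKO value was 1.5 times the highest WT value, although WT 1 and WT 2 were well above the other WT mice. The gene rose by 2.15 on the log2 scale (SE 0.45, adjusted p = 0.00907), from 167 ± 110 to 741 ± 223 CPM (SD, n = 5). Without WT 3 and WT 4 the log2 fold change was 1.70.

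Cyp3a13, a CYP3A enzyme known from the intestine, was measured at 70.5, 94.1, 32.6, 23.0 and 42.1 TPM in WT and at 202, 215, 166, 313 and 263 TPM in cKO mice. The order of the WT mice resembled that for Cyp3a11, with WT 2 highest and WT 4 lowest. The difference was 2.22 on the log2 scale (SE 0.39, adjusted p = 0.00455), and 1.81 without WT 3 and WT 4.

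Cyp3a25, a neighbour of Cyp3a11 in the CYP3A cluster, had 47.7, 59.3, 17.1, 12.1 and 24.2 TPM in WT and 115, 90.8, 87.2, 164 and 144 TPM in cKO mice. No cKO mouse fell into the WT range. It rose by 1.98 (log2, SE 0.45, adjusted p = 0.0125), and by 1.51 without WT 3 and WT 4.

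The 3 CYP3A genes kept similar proportions to each other while their sum differed. Summed CYP3A mRNA was 80.2 to 338 TPM in WT (median 135) and 595 to 1085 TPM in cKO mice (median 619), and Cyp3a11 made up 48.0 to 56.2% of it in WT and 46.6 to 57.8% in cKO mice. The log2 TPM ratio of Cyp3a11 to Cyp3a13 was 0.80 ± 0.21 in WT and 0.76 ± 0.26 in cKO mice (SD, n = 5, two-sided exact permutation test, p = 0.778, adjusted over 3 ratios 0.778). Cyp3a25 to Cyp3a13 gave -0.76 ± 0.15 and -0.95 ± 0.17 (exact permutation p = 0.0952, adjusted 0.286), and Cyp3a11 to Cyp3a25 gave 1.57 ± 0.18 and 1.72 ± 0.28 (exact permutation p = 0.349, adjusted 0.524). Thus no ratio passed the threshold of 0.05, and the smallest p that 5 against 5 mice can give is 0.00794.

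Cyp2b10, the gene by which CAR activity is usually read, stood at 61.1, 65.2, 19.5, 15.6 and 30.5 TPM in WT and at 158, 133, 110, 230 and 212 TPM in cKO mice. The cKO range began at 1.68 times the highest WT value. In the fit it rose by 2.21 (log2, SE 0.45, adjusted p = 0.00778), a 4.63-fold difference, and by 1.75 without WT 3 and WT 4.

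Cyp2d26, a member of the CYP2D family of drug-oxidizing enzymes, gave 51.5, 68.6, 27.9, 18.5 and 38.0 TPM in WT and 120, 114, 82.6, 174 and 152 TPM in cKO mice. Its groups came nearer to each other than those of the CYP3A and CYP2B genes, with the lowest cKO value 1.21 times the highest WT value. The log2 fold change was 1.75 (SE 0.37, adjusted p = 0.00911), and 1.36 without WT 3 and WT 4.

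Cyp2j6, of the CYP2J family that epoxidizes arachidonic acid and other fatty acids, varied least among the P450 genes in WT mice, at 35.3, 30.8, 24.6, 22.3 and 24 TPM, with 54.5, 65.6, 49.9, 95.1 and 94.2 TPM in cKO mice. The highest WT mouse had 1.58 times the level of the lowest, against 3.33 to 4.91 times for the other P450 genes. It rose by 1.48 (log2, SE 0.21, adjusted p = 0.00137), and by 1.32 without WT 3 and WT 4.

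Cyp1a1, which oxidizes aromatic hydrocarbons and is the best known target of AHR, was the least abundant of the 10 genes, with 2.65, 4.49, 1.39, 1.35 and 2.21 TPM in WT and 11.7, 11.4, 7.99, 12.7 and 9.48 TPM in cKO mice. Its expected counts were 73 to 264 in WT and 485 to 733 in cKO libraries, so counting error was small beside the difference. It rose by 2.22 (log2, SE 0.32, adjusted p = 0.00164), and by 1.82 without WT 3 and WT 4.

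Por, whose product passes electrons from NADPH to all microsomal P450 enzymes, was at 53.9, 63.2, 56.7, 48.4 and 52.7 TPM in WT and at 78.6, 74.0, 72.7, 93.7 and 91.1 TPM in cKO mice. These were the most even values of the WT mice (coefficient of variation 10.01%, against 64.2% for Cyp3a11). The rise of 0.68 (log2, SE 0.10, adjusted p = 0.00108) was small in size and large against its error, and was 0.58 without WT 3 and WT 4.

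Nr1i2, which encodes PXR, stood at 32.7, 39.2, 28.5, 26.5 and 28.9 TPM in WT and at 47.2, 37.1, 38.8, 53.1 and 55.6 TPM in cKO mice. In TPM the groups overlapped, since cKO 2 and cKO 3 lay below WT 2, whereas on normalised counts they did not. The log2 fold change was 0.66 (SE 0.14, adjusted p = 0.00610), and 0.52 without WT 3 and WT 4 (adjusted p = 0.0392).

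Nr1i3, which encodes CAR, had 16.6, 18.7, 8.34, 8.18 and 8.70 TPM in WT and 26.1, 22.2, 22.3, 23.9 and 28.6 TPM in cKO mice. WT 3, WT 4 and WT 5 were close to each other and well below WT 1 and WT 2. It rose by 1.07 (log2, SE 0.24, adjusted p = 0.00935), and by 0.79 without WT 3 and WT 4. Its overlapping partner Tomm40l gave a log2 fold change of -0.12 (adjusted p = 0.376).

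**Figure D2:**
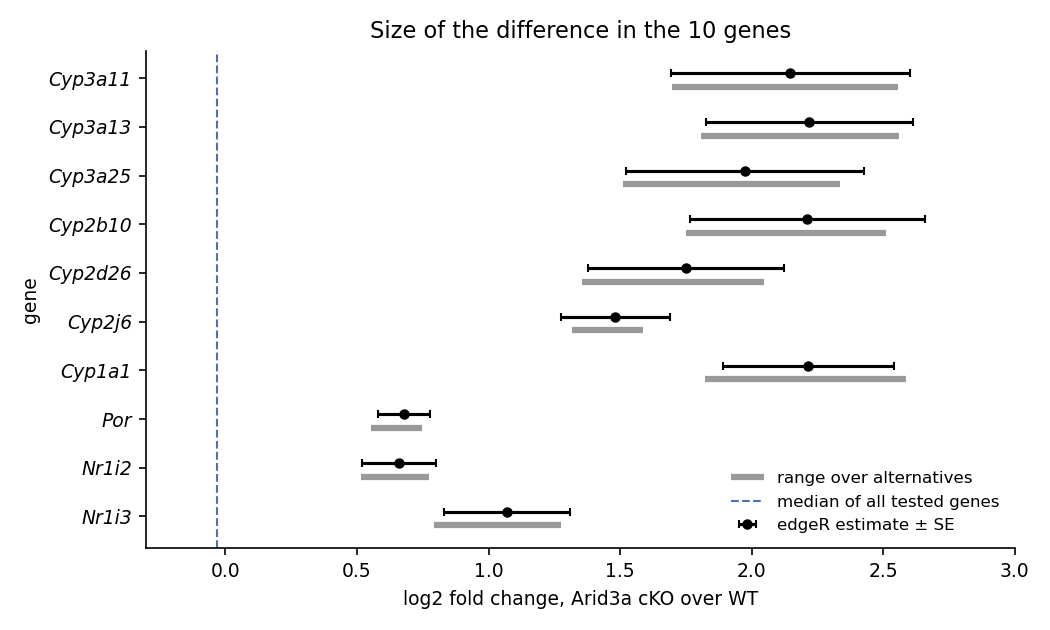
Log2 fold change of each gene, cKO over WT, with its SE from the edgeR fit (black) and the range over 21 alternative settings (grey), which include leaving out each mouse in turn. The lowest value of any range is 0.52 (Nr1i2 without WT 3 and WT 4), and the dashed line at -0.03 is the median of all tested genes.

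The receptor and reductase genes rose by less than the oxidases, and this was examined with ratios within each library that were added after the values had been seen. Por stood at 12.5 to 35.1 TPM per 100 TPM of summed P450 mRNA in WT mice (median 22.9) and at 5.87 to 8.53 in cKO mice (median 7.85). The log2 TPM ratio of Por to each P450 gene was lower in cKO mice without overlap, by a difference of -1.67 for Cyp3a11, -1.71 for Cyp3a13, -1.52 for Cyp3a25, -1.72 for Cyp2b10, -1.17 for Cyp2d26, -0.77 for Cyp2j6 and -1.45 for Cyp1a1. Each gave the smallest p that the two-sided exact permutation test allows (p = 0.00794, adjusted over 8 ratios 0.00907), in 5 of 5 cKO mice. These Por ratios share the Por value, and the P450 genes varied together between mice, so the tests are not independent of each other. The smaller rise of Por was already known, so these p-values describe it and are no new support. The log2 ratio of Nr1i2 to Nr1i3 was 1.41 ± 0.37 in WT and 0.89 ± 0.16 in cKO mice (SD, n = 5, exact permutation p = 0.0317, adjusted 0.0317). It no longer passed without WT 3 and WT 4 (difference -0.34, exact permutation, adjusted p = 0.143) or without any single one of WT 3, WT 4, WT 5, cKO 1, cKO 2 and cKO 3 (-0.51 to -0.44, adjusted p = 0.0635 each).

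**Figure D3:**
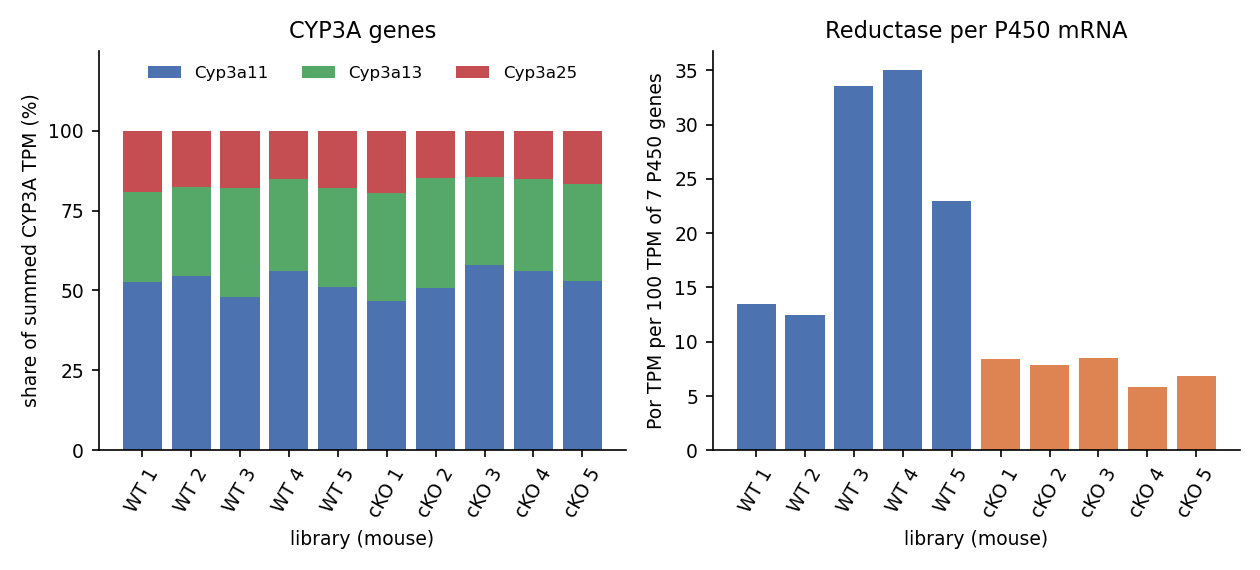
For each library, the share of Cyp3a11, Cyp3a13 and Cyp3a25 in their summed TPM (left) and the TPM of Por per 100 TPM summed over the 7 P450 genes (right). Cyp3a11 keeps 46.6 to 57.8% in all 10 libraries, whereas the Por values are 12.5 or more in WT and 8.53 or less in cKO mice.

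The order of the levels differed between the genotypes, with Por at rank 2 in WT and 6 in cKO mice, Cyp3a25 at 8 and 5, and Nr1i2 at 6 and 8. By median TPM in WT mice the order was Cyp3a11, Por, Cyp3a13, Cyp2d26, Cyp2b10, Nr1i2, Cyp2j6, Cyp3a25, Nr1i3 and Cyp1a1. Several neighbours did not separate there, since Cyp3a11 exceeded Por and Por exceeded Cyp3a13 in 3 of 5 mice each, Cyp2b10 exceeded Nr1i2 in 3 of 5 and Cyp2j6 exceeded Cyp3a25 in 2 of 5. In cKO mice the order was Cyp3a11, Cyp3a13, Cyp2b10, Cyp2d26, Cyp3a25, Por, Cyp2j6, Nr1i2, Nr1i3 and Cyp1a1. Neighbours in that order stood apart in 5 of 5 mice except Cyp2d26 over Cyp3a25 (4 of 5) and Por over Cyp2j6 (3 of 5). The mice also varied together. WT 2 was highest among WT mice for 9 of the 10 genes and WT 4 lowest for all 10, and among cKO mice cKO 4 or cKO 5 was highest for each gene and cKO 3 was lowest for 7.

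The 250 bases before the RefSeq start of each gene (GRCm38.p6) were searched on both strands for sequence classes known for these receptors. These were repeats of AGGTCA in the same direction spaced by 1, 3 or 4 bases (DR1, DR3, DR4) and everted repeats spaced by 6 (ER6), with at most 1 mismatch in each unit, together with GTTAAT of the HNF1 site and the AHR core GCGTG, both without mismatch. DR3, DR4 and ER6 are classes bound by PXR and CAR with RXR, and DR1 is the class of HNF4. All 10 genes had a promoter in the RefSeq table. Each stretch below is 50 bases on the strand of the gene, 5′ to 3′, with the match in capitals, and the 4 are shown as an example of each kind of match found before the oxidase genes.
Cyp3a11, DR4, 172 bases before the start, chr5:145879994-145880043, minus strand: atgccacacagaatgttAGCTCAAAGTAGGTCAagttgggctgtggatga
Cyp3a25, DR1, 183 bases before the start, chr5:146009770-146009819, minus strand: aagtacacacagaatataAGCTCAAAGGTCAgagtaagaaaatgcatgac
Cyp2d26, GTTAAT on the opposite strand, 90 bases before the start, chr15:82794308-82794357, minus strand: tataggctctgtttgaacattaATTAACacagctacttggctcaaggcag
Cyp1a1, GCGTG, 54 bases before the start, chr9:57697537-57697586, plus strand: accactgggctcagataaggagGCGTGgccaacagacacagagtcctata
The stretches of Cyp3a11, Cyp3a25 and Cyp2d26 lie outside the GENCODE span of the gene, and that of Cyp1a1 lies inside it, before the RefSeq start. Of 32851 promoters in the table, 1.48% held a DR4, 1.98% a DR1, 6.43% GTTAAT and 28.2% GCGTG, so the AHR core is common. GCGTG also occurred before Cyp2b10 and Por. No promoter of the 10 genes held a DR3 (1.48% of all promoters) or an ER6 (0.673%), and Cyp3a13, Cyp2j6, Nr1i2 and Nr1i3 held none of the letters searched.

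Near relatives of the P450 genes were mostly silent in these crypts. Of 6 further CYP3A genes, Cyp3a59 alone passed the filter on low counts, at a median of 0.51 TPM in WT and 0.66 TPM in cKO mice, and its log2 fold change of 0.67 (adjusted p = 0.0491) was no longer past the threshold in 18 of 21 alternatives. Cyp3a59 shares sequence with Cyp3a25. The others had at most 13.0 expected counts in any library. Of 19 listed CYP2B, CYP2D and CYP2J relatives, 18 were matched by symbol and 3 were tested. Cyp2d22, a CYP2D enzyme, rose by 1.81 (log2, SE 0.45, adjusted p = 0.0157), from a median of 2.25 to 7.50 TPM, and Cyp2j9, of the CYP2J family, by 1.00 (SE 0.22, adjusted p = 0.00729), from 2.62 to 4.44 TPM. Cyp2j5 gave 0.20 (adjusted p = 0.776), and the call of Cyp2d22 was lost in 1 of 21 alternatives.

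Genes of electron transfer to P450 enzymes moved in both directions. Of 6 such genes tested, 5 were higher (background 15.6%) and 1 lower (background 12.7%), with a median log2 fold change of 0.72. Cyb5r3, a reductase of cytochrome b5, rose by 0.91 (SE 0.16, adjusted p = 0.00258), and Cyb5b and Cyb5a, the outer mitochondrial and the microsomal cytochrome b5, by 0.80 (SE 0.09, adjusted p = 0.000438) and 0.72 (SE 0.19, adjusted p = 0.0153). Pgrmc1, a heme-binding membrane protein that associates with P450 enzymes, rose by 0.72 (SE 0.11, adjusted p = 0.00143). Its paralog Pgrmc2 (0.31, adjusted p = 0.0172) and the reductase gene Cyb5r1 (-0.40, adjusted p = 0.0172) complete the list and were named after their values were seen. The call of Pgrmc2 was lost with library size only, on TPM, without cKO 2 and without WT 3 and WT 4, and that of Cyb5r1 in 2 of 21 alternatives, the length offset among them.

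Heme synthesis and breakdown showed little difference. Of 12 genes, 2 were higher (background 15.6%), 1 was lower (background 12.7%) and 9 were not called, with a median of 0.04, so both shares were near those over all tested genes. Alas1, the first and rate-limiting enzyme of heme synthesis outside red cells, gave 0.12 (adjusted p = 0.381). Cpox (0.24, adjusted p = 0.00826) and Fech (0.22, adjusted p = 0.0397), 2 of the last enzymes of the pathway, were higher, and Ppox, which acts between them, was lower (-0.28, adjusted p = 0.0173). With library size only, no gene of the list was higher and 4 were lower, and the call of Fech was lost in 13 of 21 alternatives. The call of Ppox was lost in 3 of them, among them no filter and the length offset, and that of Cpox in 3, with library size only and on TPM.

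Partners and regulators of the receptors were called in 4 of 12 tested genes, all higher (background 15.6% higher and 28.3% called in either direction), with a median of 0.08. Ppargc1a, a coactivator of nuclear receptors, rose by 1.26 (SE 0.17, adjusted p = 0.000991), Hnf4g, an HNF4 receptor of the gut epithelium, by 1.05 (SE 0.14, adjusted p = 0.000926) and Rxra, the partner of PXR and CAR, by 0.43 (SE 0.07, adjusted p = 0.00188). Nr0b2, a repressor of nuclear receptors, was higher by 0.70 (adjusted p = 0.0493), a call lost in 15 of 21 alternatives. Hnf4a gave -0.15 (adjusted p = 0.120). Under library size only, 3 genes of this list were higher and 3 lower.

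The AHR pathway beside Cyp1a1 was called in 1 of 7 tested genes, which is not above the background of 15.6% higher, with a median of 0.11 (-0.02 with library size only). Nqo1, a quinone reductase that AHR and NRF2 induce, rose by 0.43 (SE 0.10, adjusted p = 0.00943), a call lost without WT 3 and WT 4. Arnt, the DNA-binding partner of AHR, gave 0.11 (adjusted p = 0.412), Ahr gave 0.07 (adjusted p = 0.597), and both had the opposite sign with library size only. Ahrr, the AHR repressor, gave -0.97 (adjusted p = 0.0952) at 2 to 20 expected counts. Cyp1a2 had at most 8.03 expected counts in any library and was not tested.

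Other oxidases, epoxide hydrolases, and the conjugation and efflux genes that follow oxidation were mostly higher. Of 11 further genes tested, oxidases together with epoxide hydrolases, 9 were higher (background 15.6%) and none lower (background 12.7%), with a median of 0.99. Fmo5 and Fmo4, flavin-containing monooxygenases, rose by 1.67 (SE 0.36, adjusted p = 0.00943) and 1.11 (SE 0.29, adjusted p = 0.0176), Ephx2, the soluble epoxide hydrolase, by 1.27 (SE 0.24, adjusted p = 0.00473), and Maob, a monoamine oxidase, by 1.17 (SE 0.22, adjusted p = 0.00489). Of 16 conjugation and efflux genes listed here for the PXR and CAR response, 13 were higher and none lower, beside the same background. Their median was 1.21, and their response to these receptors was not tested. Examples were Gsta1, a glutathione transferase (1.55, SE 0.26, adjusted p = 0.00306), Abcc2, an apical efflux pump (1.49, SE 0.27, adjusted p = 0.00471), and the sulfotransferases Sult1b1 (1.41, SE 0.23, adjusted p = 0.00282) and Sult1d1 (1.34, SE 0.14, adjusted p = 0.000378). Ugt1a6a (-0.02), Abcc3 (0.40) and Abcb1b (-0.95) were not called. Without WT 3 and WT 4, 7 of the 11 oxidase and epoxide hydrolase genes and 12 of the 16 conjugation and efflux genes were higher.

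**Figure D4:**
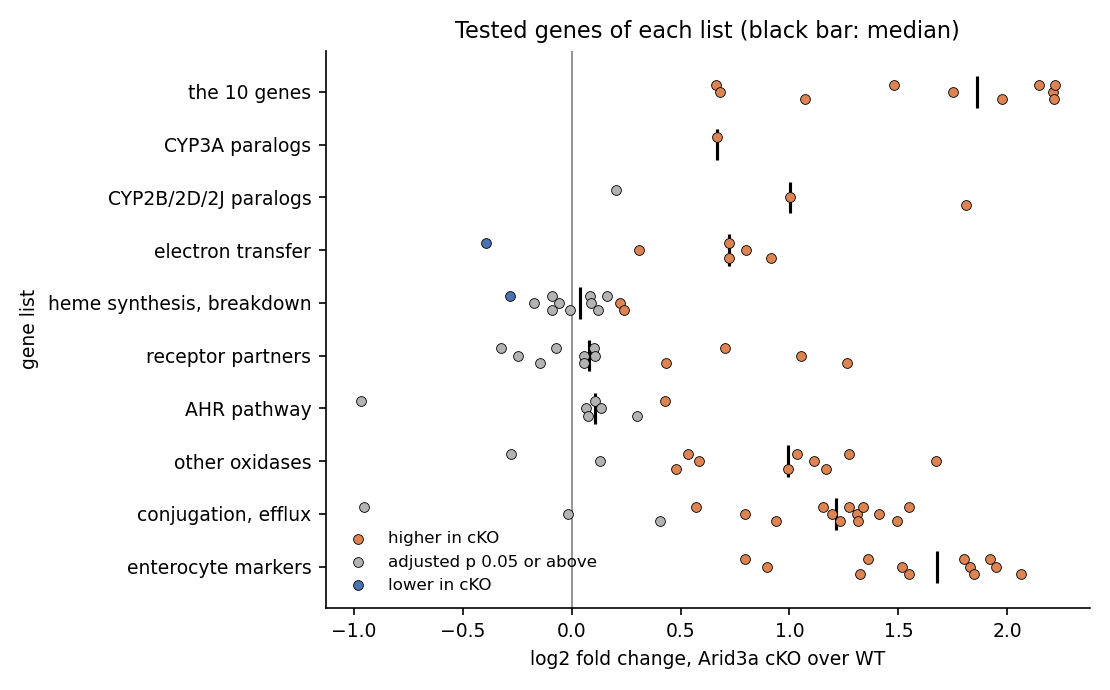
Log2 fold change (cKO over WT) of every tested gene of the 10 genes, of 8 lists of related genes and of 12 enterocyte markers, with genes higher in cKO in orange, lower in blue, the rest in grey and a black bar at the median. The medians are 1.86 for the 10 genes, 0.04 for heme synthesis and breakdown and 1.68 for the enterocyte markers.

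Enterocyte markers moved with the 10 genes. All 12 markers (among them Alpi, Sis, Lct, Apoa1 and Fabp1) were higher in cKO mice (background 15.6%), by a median of 1.68 on the log2 scale, and their summed level was 2441 to 9591 CPM in WT and 11131 to 20140 CPM in cKO mice. The mean log2 CPM of the markers rose from 8.38 ± 0.81 to 10.10 ± 0.32 (SD, n = 5), a difference of 1.72. Among WT mice the marker mean was highest in WT 2 (9.38) and lowest in WT 4 (7.30), as for most of the 10 genes. Among cKO mice it was highest in cKO 5 (10.43) and lowest in cKO 3 (9.61). Relative to that mean in the same library, Cyp3a13 and Cyp2b10 remained higher in every cKO mouse than in every WT mouse, by 0.67 and 0.69 on the log2 scale. Cyp3a11 (0.62), Cyp3a25 (0.48), Cyp1a1 (0.64) and Cyp2d26 (0.15) had positive differences with overlapping groups. Differences were negative for Cyp2j6 (-0.27), Por (-1.04), Nr1i3 (-0.57) and Nr1i2 (-1.06), and only for Nr1i2 did every cKO mouse lie below every WT mouse. These differences are descriptions without a test, and the part of the enterocyte share in the results was not tested.

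**Figure D5:**
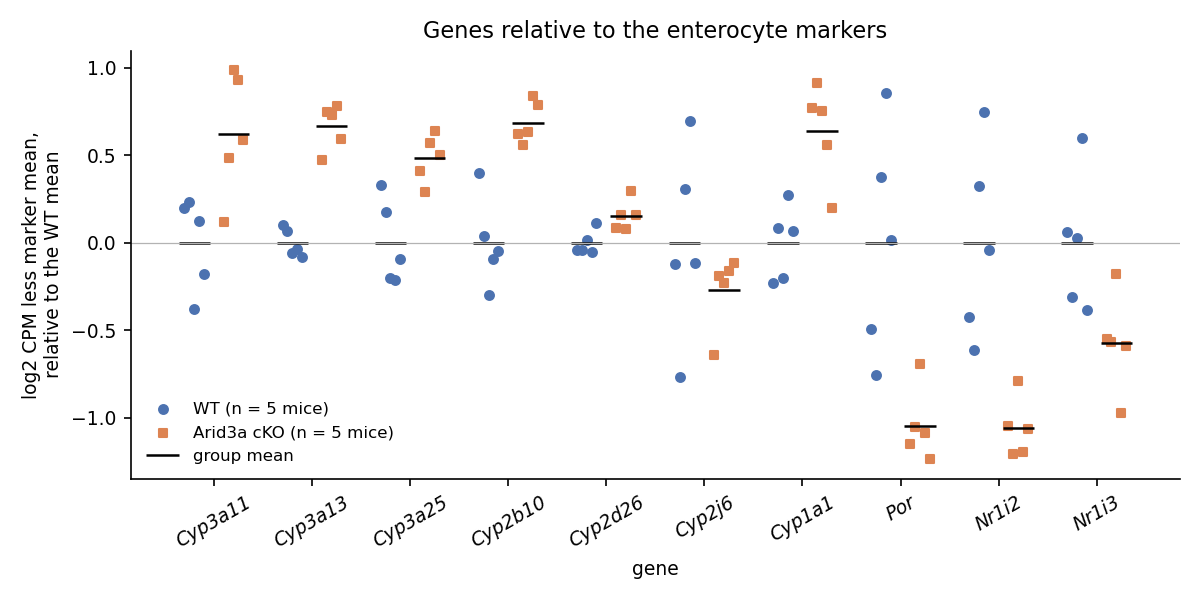
Log2 CPM of each gene less the mean log2 CPM of 12 enterocyte markers in the same library, drawn relative to the WT mean of each gene, with a circle or square per mouse and a bar at the group mean. Cyp3a13 and Cyp2b10 stay higher in all cKO mice (differences of 0.67 and 0.69), and Nr1i2 is lower in all of them (-1.06).

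Markers of other cells moved less or the other way, and their counts are to be read beside the background of 15.6% higher and 12.7% lower genes. Of 8 stem and transit-amplifying cell markers 5 were lower (summed CPM 5743 to 8856 in WT and 4497 to 6363 in cKO mice), and of 6 Paneth cell markers 5 were lower (16697 to 25386 and 10805 to 14557 CPM). None of 6 goblet cell markers was called, and 3 of 6 enteroendocrine and 3 of 4 tested tuft cell markers were higher. Among immune and stromal lists, no T cell marker was called, 2 of 6 B and plasma cell markers (Jchain and Igha) were lower (108 to 183 CPM in WT and 25.5 to 68.9 in cKO mice), and 1 marker each of the myeloid (C1qa), stromal (Acta2) and endothelial (Pecam1) lists was lower, which for the first 2 of these lists is near the background. Of 6 hepatocyte markers, listed because liver expresses these oxidases strongly, none of the 4 tested was called. The mean level of Alb in CPM was 0.88 ± 0.40 for WT and 1.17 ± 0.36 for cKO mice (SD, n = 5), and Fgb had no count in any library, whereas Cps1, which the intestine also expresses, stood at 3531 ± 637 and 3019 ± 229. B cells also express Arid3a, and the part of these cells in its lower count, like that of the other cell types in the results, was not tested.

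For 9 of the 10 genes, the gene with the most similar profile is given here, found by the root mean square difference of log2 CPM over the 10 libraries, after each gene was centred on its own mean. Cyp3a11 was nearest to Aqp7 (0.16), and Cyp3a13 and Cyp2b10 were both nearest to Gda (0.0971 and 0.13). Cyp2d26 was nearest to Fmo5 (0.11), Cyp2j6 to Il15 (0.15), Cyp1a1 to Gm5485 (0.18), Nr1i3 to Maoa (0.13), Por to Gclm (0.0758) and Nr1i2 to Gskip (0.0609). The libraries share genotype, depth and cell composition, so these distances are descriptions.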

How the data were processed

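Polyadenylated RNA of jejunal crypts from 5 WT and 5 Arid3a cKO mice was analysed, with groups and mouse numbers taken from the labels. In the nf-core/rnaseq pipeline, the authors aligned reads to GRCm38 with STAR, used the Ensembl annotation and RSEM to estimate expected counts, and deposited the expected counts, TPM and FPKM values per gene without normalization of counts between libraries. Genes that carry no symbol held 0.02% of counts and were kept in library sizes.

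Expected counts were rounded and filtered with filterByExpr (minimum count 10, minimum total 15), which left 14719 genes. They were TMM-normalised and tested for genotype with the robust quasi-likelihood test of edgeR 4.0.16 in R 4.3.3, with Benjamini-Hochberg adjustment over all tested genes and a threshold of 0.05. The DESeq2 model of the study also held time, and all mice here share 1 time point. Deposited TPM values gave levels between genes and ratios (pseudocount 0.5), compared over mice by exact permutation, two-sided (scipy 1.17.1). FPKM values gave the ratio of the group means (cKO over WT) of each of the 10 genes, from 1.45 (Nr1i2) to 4.28 (Cyp3a13). By library size without the TMM factors, 1 CPM stood for 27.1 to 31.1 counts. The CPM values above also include these factors, which ran from 0.934 (cKO 5) to 1.08 (WT 4). Counts per CPM bear on counting error only, whereas the SE of each fold change came from the quasi-likelihood fit over the mice.

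The genes and lists were chosen with earlier results of these data known. Named genes were Arid3a, the 10 genes, in each list the 4 called genes with the largest absolute log2 fold change or, where fewer than 2 passed, the 2 tested genes with the highest mean CPM, and for each of the 10 genes the gene with the nearest profile. The nearest profile to Cyp3a25 is not reported here. Markers of other cells were named only where a group or library differed. Genes outside the rule (Cyp2j5, Pgrmc2, Cyb5r1, Alas1, Hnf4a, Ahr, Ahrr, Cyp1a2, Ugt1a6a, Abcc3, Abcb1b, Tomm40l, Alb and Fgb) were named after their values were seen.

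The replicate numbers did not pair mice across genotypes, so the fit had no block. The alternatives tried were library size only and RLE factors for scaling, DESeq2 1.42.0, unrounded counts, no filter, a minimum of 10 counts in each library, an offset for effective length, limma 3.58.1 on log2(TPM + 0.5) and log2(TPM + 0.1), a replicate block, leaving out each mouse, and leaving out both WT 3 and WT 4, the last chosen after the data were seen. The scripts were tested on simulated data. Transcripts were those of GENCODE vM21 and promoters those of RefSeq (GRCm38.p6).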

Additional observations from a re-analysis of the deposited data

Results flagged for a closer look

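In 26 groups of 5 mice (the log2 CPM of each of the 10 genes and the 3 CYP3A ratios, in each genotype), 1 had a mouse far from the others. For the log2 TPM ratio of Cyp3a25 to Cyp3a13 in cKO mice, the gap of cKO 2 (-1.24) to the nearest of the others (-0.93) was 0.715 of the whole range, above the critical value of 0.71 for 5 samples. Chance gives this in about 1 of 20 groups.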

How the results depend on the processing

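The 10 genes were higher in cKO, with an adjusted p under the threshold, in all 21 alternatives. Their largest adjusted p was 0.0476 (Cyp3a25, with the replicate block), and their log2 fold changes without WT 3 and WT 4 ran from 0.52 (Nr1i2) to 1.82 (Cyp1a1). All 7 ratios of Por to a P450 gene stayed past the threshold in every alternative run on them.

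Some counts moved by more than 1.5 times. Genes higher in cKO, 2298 in the report, were 1401 and 1399 with limma on TPM with pseudocounts of 0.5 and 0.1 and 1472 without WT 3 and WT 4, but stayed within that limit when 1 mouse was left out (1760 to 2572). Genes lower in cKO, 1869 in the report, were 4030 with library size only, 1188 with the replicate block, 670 without WT 3 and WT 4, and 1131 (without WT 4) to 2112 when 1 mouse was left out. Lower genes of the 8 lists, 2 in the report, were 9 with library size only, 1 with no filter and 1 with the length offset, 4 and 5 on TPM with pseudocounts of 0.5 and 0.1, and 0 with the replicate block (31 were higher there, against 37). The difference in the Cyp3a11 to Cyp3a13 ratio, which passed no test, ran from -0.118 to 0.0383 when 1 mouse was left out, and was above 0 without WT 2 (0.0024), cKO 1 (0.0383) or cKO 2 (0.0154). The cause was not tested.

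The replicate number was tried as a block although mice of the same number did not deviate together (correlations of -0.21 to 0.09, none nearest to its own number). It gave 3048 calls, against 4167 without it, and all 10 genes stayed past the threshold. Among the genes named from the lists, the block ended the calls of Cyp2d22, Cyb5r1, Ppox, Fech, Nr0b2 and Cyp3a59. Counting error limits Cyp1a2, most CYP3A relatives and Ahrr, which had few reads.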
